A study of Bos taurus with 8 samples.

Results

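Red blood cell genes were examined in mammary gland tissue of lactating Holstein Friesian cows through 5 genes: the globins HBA, HBB and HBM, the alpha globin chaperone AHSP and the haem synthesis enzyme ALAS2. Every probe whose gene name or RefSeq identifier on the array is one of these genes was taken, which gave 8 probes for 5 of the 16692 genes named on the array. The genes had been chosen by their log2 ratios between high-yield and low-yield cows in these same arrays, so their yield ratios are given as a description without a test. ALAS2 proved too dim for its ratio to be read.

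The study compared 4 high-yield cows, averaging 11097 kg of milk per lactation, with 4 low-yield cows, averaging 6956 kg. All 8 cows were healthy and lactating, and RNA was isolated from a portion of the gland. On an array a high-yield cow met a low-yield cow in the same lactation, one in Cy5 (red) and one in Cy3 (green), and each of the 4 pairs had 2 arrays of opposite dye order. Pairs 1 and 2 were in lactation II on slide 1 and pairs 3 and 4 in lactation IV on slide 2, so lactation and slide cannot be told apart. Yield was not tied to slide. The labels used here give neither the ages of the cows, the stage within the lactation, nor any step to remove blood from the tissue.

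Haemoglobin, the oxygen carrier of red blood cells, joins alpha-type and beta-type globin chains, each of which holds a haem group. Alpha-type and beta-type genes lie in separate clusters, in which embryonic and fetal genes sit beside the adult ones. Mature red cells of mammals have no nucleus, but young red cells still carry globin messenger RNA. AHSP binds free alpha chains until they meet a beta chain, and ALAS2 makes the first haem precursor in erythroid cells. In bulk tissue, fewer cells of a type and less RNA per cell cannot be told apart.

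The probes are 60 bases long, and sequences are given below, in part where stated. Positions are those of the array design on build HGSC Btau_3.1, and exon annotation of that build was not used here. For HBA (chromosome 25, 673407 to 673466) the last 30 bases are shown, and for HBM probe A_73_P034266 (chromosome 25, 668157 to 668216) bases 27 to 56, with the polyadenylation hexamer AATAAA in capitals. The other HBM probe, A_73_P450596, lies upstream on chromosome 25 at 667723 to 667782, and the HBB probe on chromosome 15 at 47825720 to 47825779.
HBA A_73_115494: cacctcctgatctttgAATAAAgtctgagt
HBM A_73_P034266: tctgcgaaattcAATAAAcaggcctcagta
HBM A_73_P450596: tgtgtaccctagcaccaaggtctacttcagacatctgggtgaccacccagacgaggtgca
HBB A_73_120596: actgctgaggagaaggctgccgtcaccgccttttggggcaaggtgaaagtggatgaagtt

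AATAAA, searched on the probe's own strand, was found in 2 of the 8 probes and in 9.4% of all 43653 probes. The longest run that any of the 4 globin probes shared with a probe of another globin gene was 10 bases. Probes were compared with probes and not with whole transcripts, so this run does not show how specific they are. The HBA probe is listed for 2 Ensembl transcripts and no probe is named HBA1, so near-identical copies of alpha globin cannot be told apart here.

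For AHSP, probe A_73_119300 (chromosome 25, 29367961 to 29368020) and probe A_73_P041771 (29367976 to 29368035) overlap by the 45 bases in capitals, so they are not independent measurements. The third AHSP probe, A_73_P118806 (chromosome 25, 29366727 to 29366786), was designed on an expressed sequence tag upstream of both. The ALAS2 probe lies on the minus strand of chromosome X at 60276706 to 60276765, and its sequence is given because it is the sole probe for that gene.
AHSP A_73_119300: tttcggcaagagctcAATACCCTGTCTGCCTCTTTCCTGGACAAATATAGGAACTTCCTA
AHSP A_73_P041771: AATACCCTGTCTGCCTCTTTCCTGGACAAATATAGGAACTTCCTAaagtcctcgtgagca
ALAS2 A_73_101816: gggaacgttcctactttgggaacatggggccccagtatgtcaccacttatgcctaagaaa

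The yield ratio of a probe is the normalised log2 signal of the high-yield cow minus that of the low-yield cow, averaged to 1 value per pair, so that 1 stands for a doubling. Levels of single cows are rebuilt log2 intensities. Between 22027 and 42482 of 43653 probes per array channel (1 cow in 1 dye on 1 array) were well above background, and a probe was kept where this held in at least 6 of 8 channels of high-yield or of low-yield cows. Each of the 12688 genes with a kept probe was tested through its brightest one. Across kept probes, the ratios of the dye-swapped arrays correlated at 0.753, 0.294, 0.668 and 0.260 in pairs 1 to 4. Pair 1 stood apart: the milk protein genes of its low-yield cow summed to 46043 (summed rebuilt intensity) against 1448650 to 1740240 in pairs 2 to 4, and in high-yield cows these genes summed to 739358 to 5020060. For HBA, HBB, HBM and the AHSP probe that stands for its gene, values without pair 1 are therefore given beside those of all pairs.

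Signal over background separated the probes into bright, dim and unmeasured ones. The HBA probe and AHSP probes A_73_P041771 and A_73_119300 were well above background in 16 of 16 channels. HBB was so in 6 of 8 high-yield and 3 of 8 low-yield channels, and HBM probe A_73_P034266 in 8 and 3, so both passed the filter only through the high-yield cows. HBM probe A_73_P450596 (2 high-yield and 1 low-yield channel), AHSP probe A_73_P118806 (1 and 3) and ALAS2 (1 and 0) did not pass.

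**Figure D1:**
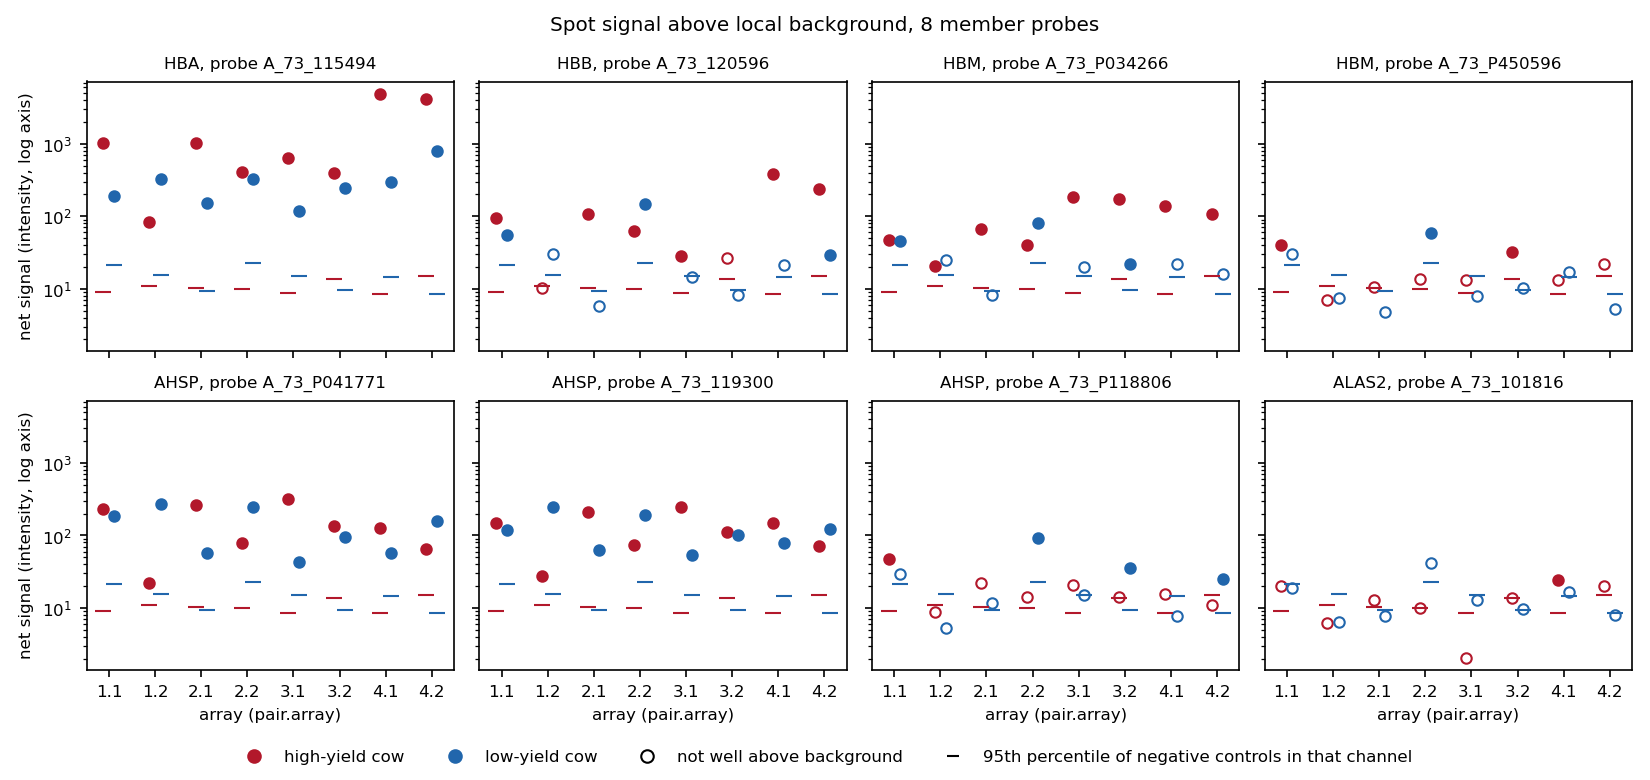
Mean spot signal minus local background (intensity, log axis) of the 8 probes on each array, labelled as pair and array, with red for the high-yield and blue for the low-yield cow, open circles for spots not well above background and dashes for the 95th percentile of the 153 negative control spots in that channel. HBA and the first pair of AHSP panels lie above the controls on every array, with HBA at 84.5 to 4903 in high-yield cows, while ALAS2 stays at 2.05 to 42.2.

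HBA encodes the adult alpha chain of haemoglobin. Net signal (spot minus local background) was 1025 and 84.5 on the arrays of pair 1 in the high-yield cow, against 189 and 327 in the low-yield cow. In pair 4 it was 4903 and 4204 in the high-yield cow against 295 and 797. The high-yield cow was thus brighter in raw signal on 7 of 8 arrays, the exception being array 2 of pair 1. On that array the Cy5 channel was brighter over the kept probes. Their median background-corrected log2 ratio of red over green was 3.45 before dye normalisation, against -0.11 to 1.39 on the other arrays.

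After normalisation the HBA ratio was 2.08, 1.48, 1.48 and 3.55 in pairs 1 to 4. The mean was 2.15 ± 0.98 (SD, n = 4 pairs), or 4.43-fold, and 2.17 without pair 1. The arrays of a pair gave 2.35 and 1.81, 1.02 and 1.95, and 1.31 and 1.64 in pairs 1 to 3, so HBA was higher in the high-yield cow on 7 of 7 arrays with a value. The spot on array 1 of pair 4 was marked as an outlier by the scanner software and dropped, so pair 4 rests on 1 array. With such spots kept, the mean was 2.10, and without pair 4 it was 1.68.

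The level of HBA ranged over the cows from 6.82 in the low-yield cow of pair 1 to 12.45 in the high-yield cow of pair 4 (log2 intensity). The other low-yield cows stood at 8.09, 8.31 and 8.90 and the other high-yield cows at 8.90, 9.58 and 9.78. The groups touched: the low-yield cow of pair 4 and the high-yield cow of pair 1 were both at 8.90. The 2 arrays of a cow differed by 0.13 to 0.54, except for the high-yield cow of pair 1, which read 9.42 and 8.38, the latter on the array with the red excess. The cows of pair 4 have 1 array each. Neighbours at 8.09 and 8.31, at 8.90, and at 9.58 and 9.78 lay closer than 0.54, and the other neighbours lay 0.59 to 2.67 apart.

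HBB encodes the adult beta chain. Its net signal in the high-yield cows was 378 and 241 in pair 4 and from 10.11 to 108 in pairs 1 to 3, and in the low-yield cows it was between 5.81 and 147. The ratio was 0.22, 0.76, 0.19 and 2.56 in pairs 1 to 4, so pair 4 stood far above the others. The mean was 0.93 ± 1.12 (SD, n = 4 pairs), below its own SD, and 1.17 without pair 1 but 0.39 without pair 4.

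From pair 1 to pair 4 the level of HBB was 6.23, 7.17, 6.36 and 8.57 in high-yield cows, and 6.01, 6.41, 6.17 and 6.01 in low-yield cows. The groups overlapped, with the low-yield cow of pair 2 above the high-yield cows of pairs 1 and 3. The normalised ratio was above 0 on 8 of 8 arrays, while the raw net signal was higher in the high-yield cow on 6 of 8. The offset of 50 intensity units added to every spot pulls the ratios of dim probes towards 0: with an offset of 0, chosen after the data were seen, HBB stood at 2.13.

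HBM encodes mu globin, an alpha-type chain of the same cluster as HBA. By probe A_73_P034266 its net signal in high-yield cows was between 20.9 and 67.5 in pairs 1 and 2 and between 109 and 182 in the other pairs. In the low-yield cows it was between 8.08 and 81.4. The ratio was 0.25, 0.57, 1.68 and 1.56 in pairs 1 to 4, with a mean of 1.01 ± 0.71 (SD, n = 4 pairs), or 1.27 without pair 1, and it was above 0 on 7 of 8 arrays.

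From pair 1 to pair 4 the level of HBM was 6.18, 6.66, 8.27 and 7.60 in high-yield cows, and 5.93, 6.09, 6.59 and 6.04 in low-yield cows. The groups overlapped through the high-yield cow of pair 1, which lay below the low-yield cow of pair 3. With an offset of 0 the mean ratio was 2.57. The other probe, A_73_P450596, gave ratios of 0.08, 0.02, 0.25 and 0.18, a mean of 0.13 ± 0.10, from spots that were mostly not well above background. The levels of the HBM probes correlated at 0.929 over the 8 cows, a description of cows that share arrays in pairs.

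AHSP, the alpha globin chaperone, was measured above background on every array. Net signal by probe A_73_P041771 in the high-yield cow was 231 and 22.2, 263 and 77.7, 321 and 135, and 129 and 65.7 on the arrays of pairs 1 to 4. In the low-yield cow it was 185 and 269, 57.3 and 248, 42.4 and 95.02, and 56.6 and 156. The raw signal was higher in the high-yield cow on 4 of 4 arrays with this cow in Cy5 and on 1 of 4 with it in Cy3, that of pair 3. The direction of AHSP in the other pairs was thus seen only after the dye correction.

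The normalised ratio of AHSP by this probe was 0.22, 0.40, 1.20 and 0.23 in pairs 1 to 4, a mean of 0.51 ± 0.47 (SD, n = 4 pairs), 0.61 without pair 1 and 0.28 without pair 3. The overlapping probe A_73_119300 gave 0.29, 0.35, 0.78 and 0.28, a mean of 0.43 ± 0.24. By either probe pair 3 was the highest and 8 of 8 arrays were above 0. Levels were 7.15, 7.75, 8.57 and 7.29 in the high-yield cows and 6.93, 7.35, 7.36 and 7.06 in the low-yield cows, and the groups overlapped.

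The upstream AHSP probe A_73_P118806 did not follow the others. Its ratios were 0.18, -0.12, -0.25 and 0.00, a mean of -0.05 ± 0.18, and its net signal lay between 5.32 and 93.2 over all channels. It correlated with A_73_P041771 at 0.340 over the 8 cows, where the overlapping probes correlated at 0.945.

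ALAS2, the erythroid form of the enzyme that starts haem synthesis, gave net signals of 2.05 to 24.6 in high-yield and 6.33 to 42.2 in low-yield cows. It was not well above background in any low-yield channel and above it in 1 high-yield channel, array 1 of pair 4. Some spots lay above the 95th percentile of the negative controls in their channel and others below it. The low-yield cow on array 2 of pair 2 was at 42.2 against 22.6, and the high-yield cow on array 1 of pair 3 at 2.05 against 8.60. No fold is given, as the probe was too dim for its ratio to be read.

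**Figure D2:**
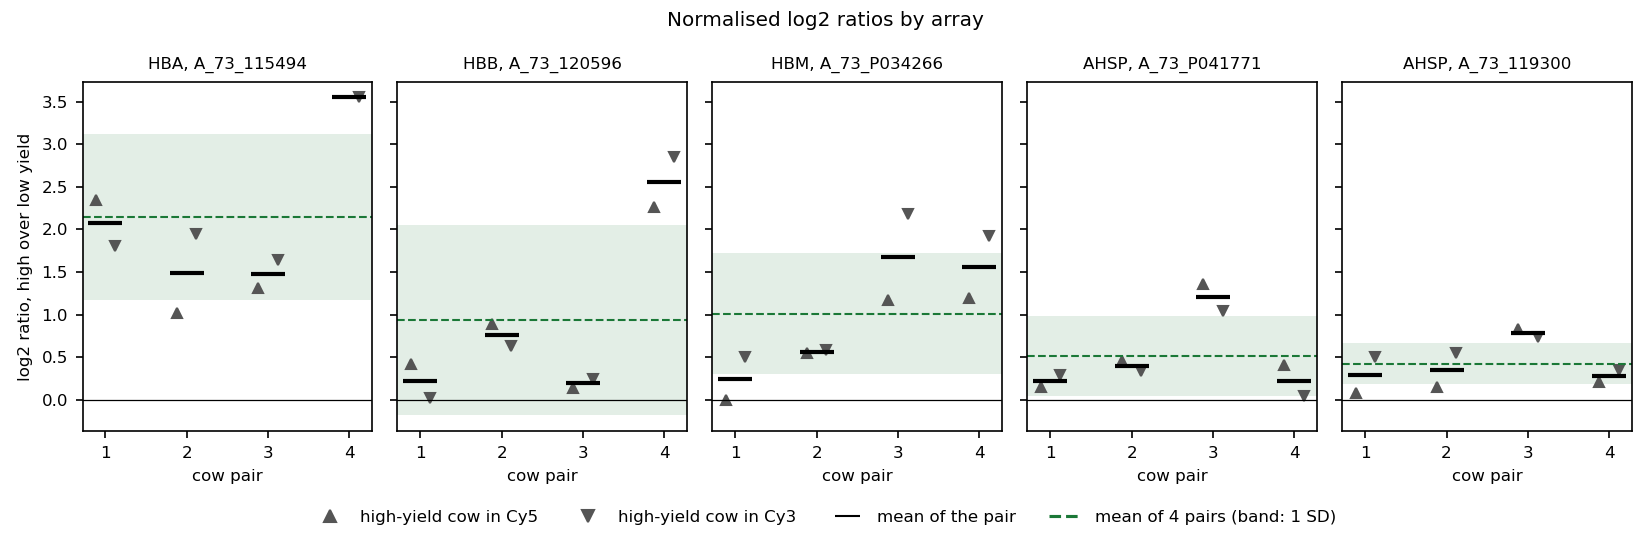
Normalised log2 yield ratio (high over low) on each array (triangles up for the high-yield cow in Cy5, down for Cy3), the mean of each pair (black bars) and the mean of 4 pairs with 1 SD (dashed line and band) for the 5 probes kept. HBA lies above 1 in every pair, HBB is high in pair 4 at 2.56, HBM in pairs 3 and 4, and AHSP in pair 3.

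All 4 measurable genes had a ratio above 0 in 4 of 4 pairs, where 9.62% of the 12688 genes tested were higher and 7.65% lower in all pairs. This contrast chose the genes, so nothing is read from their count. Levels of 0 of the 4 genes were free of overlap between the yield groups, against 1.21% of all genes tested that were higher without overlap. Across all genes limma called 0 (0%) for yield at an adjusted p under 0.05, with 667 genes at an unadjusted p under 0.05. The median ratio of all genes tested was 0.03.

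The pairs ranked differently by gene. HBA and HBB were highest in pair 4 and AHSP in pair 3. HBM was high in pairs 3 and 4, and which of them led changed with the processing: pair 4 led at 1.41 against 1.04 with the saddle-point normexp fit, 3.92 against 3.76 with the scanner's processed signals and 3.55 against 3.28 with an offset of 0. Over the levels of the 8 cows HBA correlated with HBB at 0.877, with HBM at 0.700 and with AHSP at 0.311. HBM correlated with AHSP at 0.807 and HBB with AHSP at 0.090. These are descriptions over 8 cows that share arrays, dyes and slides. Both yield groups are pooled and the genes were chosen by their yield ratios, so the yield difference enters each correlation. The values of HBA and HBB lean on the high-yield cow of pair 4. HBM and AHSP were both highest in the high-yield cow of pair 3, at 8.27 and 8.57.

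The labels also allow the yield ratio to be compared between lactations, a contrast that the choice of genes did not use. The difference of lactation IV minus lactation II was 0.73 ± 0.77 (SE) for HBA, 0.89 ± 0.85 for HBB, 1.21 ± 0.30 for HBM and 0.41 ± 0.43 for AHSP, each from 2 pairs against 2. For HBM both pairs of lactation IV lay above both of lactation II. None of the 4 passed the limma test over all genes, with adjusted p = 0.759 for HBA, 0.740 for HBB, 0.614 for HBM and 0.760 for AHSP. In that comparison limma called 0 of 12688 genes (0%), with 1006 genes at an unadjusted p under 0.05. HBB and HBM were above background in 3 of 8 low-yield channels, so their differences rest on low-yield signals that were mostly near background. The difference turned to -0.30 for HBA and -0.29 for HBB without pair 4, and to -0.082 for AHSP without pair 3. Without pair 2 the count over all genes was 252 and with median centring 7, with 0 of the 4 genes among them. Without pair 1 the differences were 1.03 for HBA, 0.62 for HBB, 1.05 for HBM and 0.32 for AHSP.

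The other globin genes of the clusters were read from the same arrays. On chromosome 25, in map order, stand HBZ, the embryonic zeta chain, then HBM, HBA and HBQ1, the theta chain. HBZ (652691 to 652750) was well above background in 16 of 16 channels with ratios of 0.96, 0.15, 2.36 and -0.10 in pairs 1 to 4, a mean of 0.84 ± 1.11. HBQ1 gave 0.32, 0.09, 1.56 and -0.01 by its brightest probe (675725 to 675921), a mean of 0.49 ± 0.73. Both were thus highest in pair 3 and near 0 in pair 4, unlike HBA, which was highest in pair 4. The other HBQ1 probes differed: A_73_P038621 was highest in pair 1 at 1.45, and A_73_P149406 had a mean of 0.07.

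On chromosome 15 the beta-type cluster showed one gene whose probes went apart. HBE1, an epsilon-type chain, stood at 0.08 ± 0.15, and the single probes of HBE2 and HBE4 were not kept (5 and 7 of 16 channels above background). HBG, the gamma-type chain, was represented in the fit by its brightest probe, A_73_P417511 (47887142 to 47887200), with ratios of 0.52, -0.26, -0.35 and -0.54. HBG probe A_73_P441566 (47886299 to 47886358) gave -0.03, 1.56, 0.20 and 3.59, and probe A_73_P036986 (47887119 to 47887178) gave -0.38, 1.01, 0.27 and 2.37. In both of these, pair 4 was highest and pair 2 next, the order of HBB as well. The positions of A_73_P036986 overlap those of A_73_P417511, yet their ratios in pair 4 were 2.37 and -0.54. Why they differ was not tested.

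Over the 8 cows the level of HBG probe A_73_P441566 correlated with that of HBB at 0.990, and that of A_73_P036986 at 0.940, while the brightest HBG probe was at -0.07. These HBG probes were singled out after their values were seen, and the correlations are descriptions over cows that share arrays. The level by A_73_P441566 was 9.91 in the high-yield cow of pair 4 and 8.03 in that of pair 2, and between 6.32 and 6.78 in the other 6 cows. Beta-type globin genes are close in sequence, and how far these probes also bind messenger RNA of HBB was not tested.

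**Figure D3:**
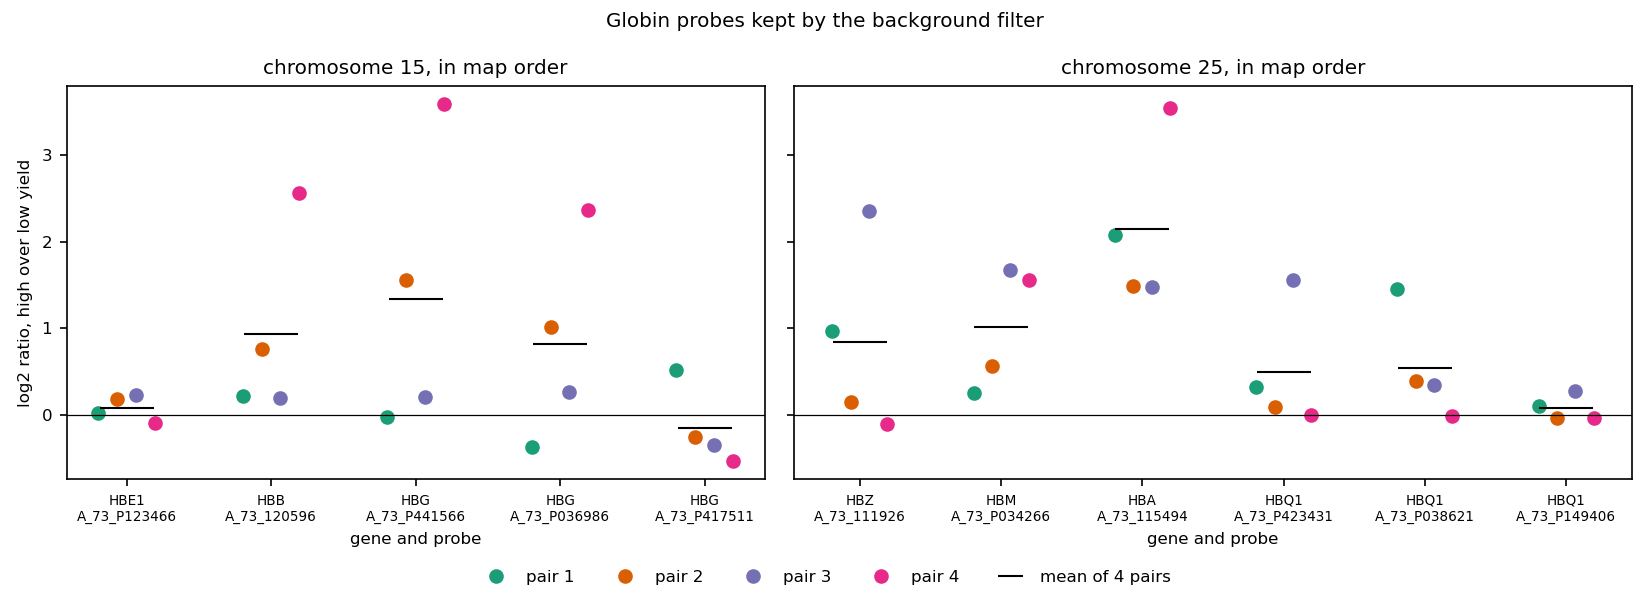
Log2 yield ratio (high over low) in each pair (coloured points) and the mean of 4 pairs (black bars) for all globin probes kept by the background filter, in map order on chromosome 15 (left) and chromosome 25 (right). HBB and HBG probes A_73_P441566 and A_73_P036986 are highest in pair 4, at 2.56, 3.59 and 2.37, whereas HBZ and the first HBQ1 probe are highest in pair 3, at 2.36 and 1.56.

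Other genes of red cells and of haem were taken from 6 lists: globins, haem synthesis, red cell membrane, erythroid transcription factors and signalling, red cell enzymes, and haem and iron handling. Of 91 listed genes besides the members, 82 were on the array and 68 were tested. Limma called 0 of these 68 for yield and 0 for the difference between lactations, with 4 and 6 at an unadjusted p under 0.05. Their median ratio was 0.08 against 0.03 for all genes tested. In all, 10 of 68 (14.7%) had a ratio above 0 in all 4 pairs, where the share over all genes was 9.62%, and 0 were lower in all pairs.

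Of 10 genes of erythroid transcription factors and signalling tested, 7 had a mean above 0, where this held for 54.9% of all genes tested, and the median was 0.24. LMO2, a partner of the blood stem cell factor TAL1, gave 0.42, 0.71, 1.46 and 0.96, a mean of 0.89 ± 0.44 (adjusted p = 0.794, limma). LYL1, a relative of TAL1, stood at 0.35 ± 0.15 (adjusted p = 0.794, limma). TFRC, the transferrin receptor that brings iron to haemoglobin-making cells, stood at -0.19 ± 0.33; it was above background in 3 of 8 high-yield and 7 of 8 low-yield channels and passed the filter only through the low-yield cows. GATA1 and KLF1, the master factors of red cell development, were each well above background in 4 of 16 channels and were not kept.

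Of 11 red cell membrane genes tested, 10 had a mean above 0, against the same 54.9% of all genes tested, and the median was 0.22. The membrane genes were not set apart from other genes by a test. DMTN, an actin-binding protein of the membrane skeleton, gave 0.72, 0.25, 1.82 and 0.19, a mean of 0.75 ± 0.76. ADD2, the beta chain of adducin, stood at 0.22 ± 0.15, kept through the high-yield cows (7 channels against 4), and EPB42, likewise kept (6 against 5), which ties the skeleton to the membrane, at 0.08 ± 0.05. SLC4A1, the band 3 anion exchanger, stood at -0.05 ± 0.19. RHAG, a surface protein of red cells, was above background in 3 of 16 channels and was not kept. SLC4A1 thus did not share the HBA pattern, being lower in pairs 1 and 2 (-0.11 and -0.29).

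Haem synthesis and red cell enzymes had medians of 0.02 each, over 13 genes tested in either list. UROD, an enzyme midway in haem synthesis, stood at 0.26 ± 0.06 and SLC25A38, the mitochondrial carrier that supplies glycine for haem, at 0.34 ± 0.21. ALAS1, the form of the first haem enzyme found in all tissues, gave -1.49, -1.06, 0.51 and 1.00, so it was lower in both pairs of lactation II and higher in both of lactation IV. That difference of 2.02 ± 0.35 (SE) had an adjusted p of 0.614 by limma. FECH, which inserts iron into haem, was above background in 6 of 16 channels and was not kept.

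Among red cell enzymes PKLR, the pyruvate kinase of liver and red cells, stood at 0.28 ± 0.29. BPGM, which makes the regulator of oxygen release, stood at 0.02 ± 0.17, and CA2, carbonic anhydrase 2, at -0.03 ± 0.30. CA1, the abundant carbonic anhydrase of red cells, was above background in 2 of 16 channels and HEMGN, a nuclear protein of red cell precursors, in 4.

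Haem and iron handling had a median of 0.08 over 18 genes tested. HMOX2, the constitutive haem oxygenase, stood at 0.59 ± 0.27, and BLVRA, which turns its product biliverdin into bilirubin, at 0.69 ± 0.65 (adjusted p = 0.794 for each, limma). HMOX1, the inducible haem oxygenase, gave -1.14, -0.83, 0.13 and 1.33. HP, haptoglobin, which binds free haemoglobin, gave -0.31, -0.88, 0.37 and 4.93. CD163, the macrophage receptor for haptoglobin-bound haemoglobin, stood at -0.19 ± 0.55 and MB, muscle myoglobin, at 0.07 ± 0.09. Pair 4 therefore had the highest ratio of HP, HMOX1 and HBA alike, while CD163 was lowest there at -0.96.

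**Figure D4:**
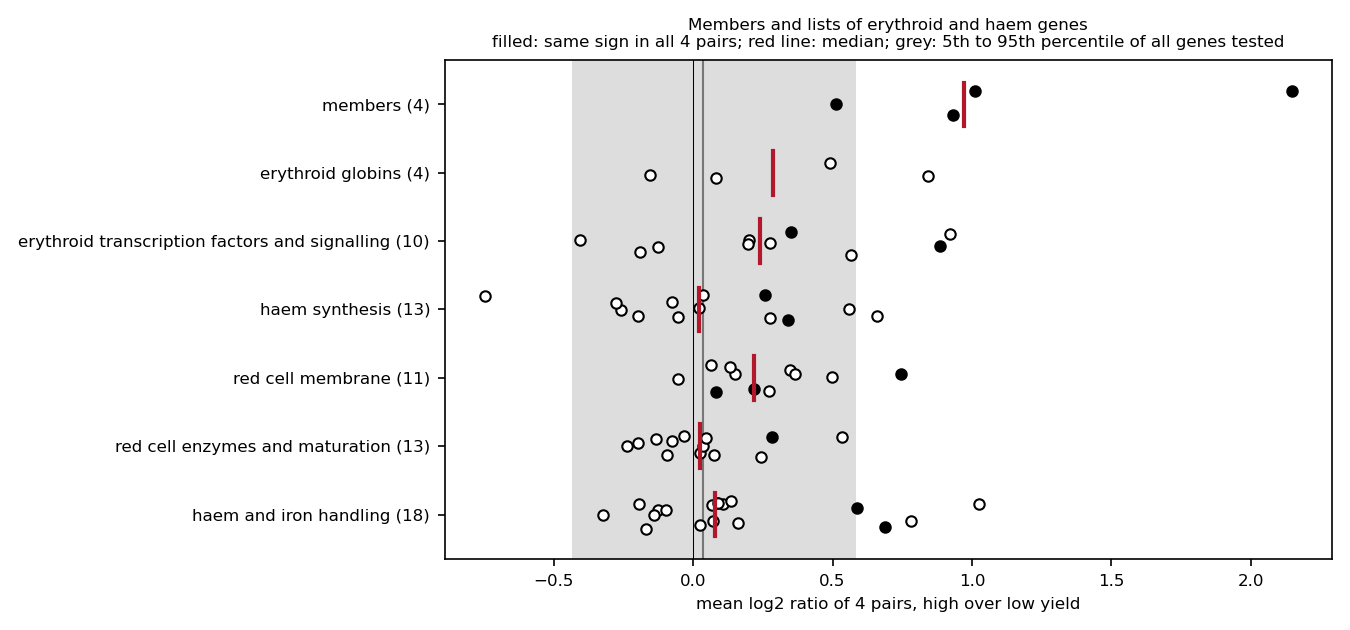
Mean log2 ratio of 4 pairs, high over low yield, for the 4 measurable members and the tested genes of 6 lists without the members, with filled points for 1 sign in all 4 pairs, red lines for list medians and a grey band for the 5th to 95th percentile of all 12688 genes tested. HBA at 2.15 lies beyond every list gene shown, and the list medians lie between 0.02 and 0.29.

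A ratio above 1 was found for 4, 1, 10 and 6 of the 68 list genes in pairs 1 to 4, against 10.3%, 1.81%, 8.53% and 3.49% of all genes tested. In pair 3 these included GFI1B, an erythroid and platelet transcription factor, at 3.12 and EPOR, the erythropoietin receptor, at 1.60, both named after their values were seen. In pair 4, where HBA was highest, GFI1B stood at -0.02 and EPOR at -0.09. GFI1B and EPOR thus had their highest ratios in pair 3, and HBA in pair 4.

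Markers of cell types were read beside the globins. The erythroid list had 6 of 10 markers tested, with summed rebuilt intensities of 916 to 6536 in the high-yield and 509 to 931 in the low-yield cows, and it holds the members themselves. Of its markers besides the members, SLC4A1 and EPB42 were measurable, while RHAG and HEMGN were not kept. Endothelium (9 of 10 markers tested, median ratio 0.21) summed to 9893, 5602, 7483 and 15192 in high-yield cows, from pair 1 to pair 4, and to 6439 to 10760 in low-yield cows. Pericytes and smooth muscle (6 of 7 tested, median 0.45) summed to 125414 in the high-yield cow of pair 4 and to 29671 to 66955 in the other cows. The summed intensities of both lists were thus highest in the cow with the highest HBA and HBB levels. Single genes need not follow a sum: the median endothelium ratio was 0.71, -0.25, -0.19 and 0.24 in pairs 1 to 4. Whether these markers came from vessel cells, and their part in the result, was not tested.

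Markers of other blood cells did not share 1 direction. Median ratios were 0.09 for platelets (4 of 10 tested), 0.08 for neutrophils (9 of 12), -0.27 for T and NK cells (12 of 12), 0.33 for B and plasma cells (5 of 8) and -0.10 for macrophages and monocytes (10 of 11). PF4 and PPBP, abundant platelet transcripts, were above background in 5 of 16 channels each and not kept. These medians were not even over the pairs, running from -0.87 to 0.17 for T and NK cells and from -0.75 to 0.64 for macrophages and monocytes. Of the gland's own tissue, luminal epithelium had 8 of 8 markers above the background filter, with a median of 0.06. Within pairs 1 to 4 the luminal median was -1.47, -0.20, 0.80 and 0.25. Milk proteins (7 of 7) had a median of 1.14 that rested on pair 1, where it was 7.10 against -1.16, -0.86 and -1.04 in pairs 2 to 4.

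The genes whose levels over the 8 cows were most like HBA, by Pearson correlation among 12684 other genes, were RYR2 (0.958), IL33 (0.948), CNTD2 (0.941), GJA4 (0.923), CYM (0.918), HSD11B2 (0.914), APOBEC1 (0.913) and FOSL2 (0.905). IL33, an alarmin cytokine of barrier and vessel cells, had a mean ratio of 0.86 ± 0.71, and GJA4, the gap junction protein connexin 37 of vessel walls, of 0.56 ± 0.46. The other 6 had means of 0.20 to 0.35. The level of each of the 8 was highest in the high-yield cow of pair 4. CYM and RYR2 were dim in low-yield cows (3 and 5 of 8 channels above background) and passed the filter only through the high-yield cows. The genes were picked for following HBA, so a shared direction is built in, and the ranking is a description over 8 cows that leans on the high-yield cow of pair 4.

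**Figure D5:**
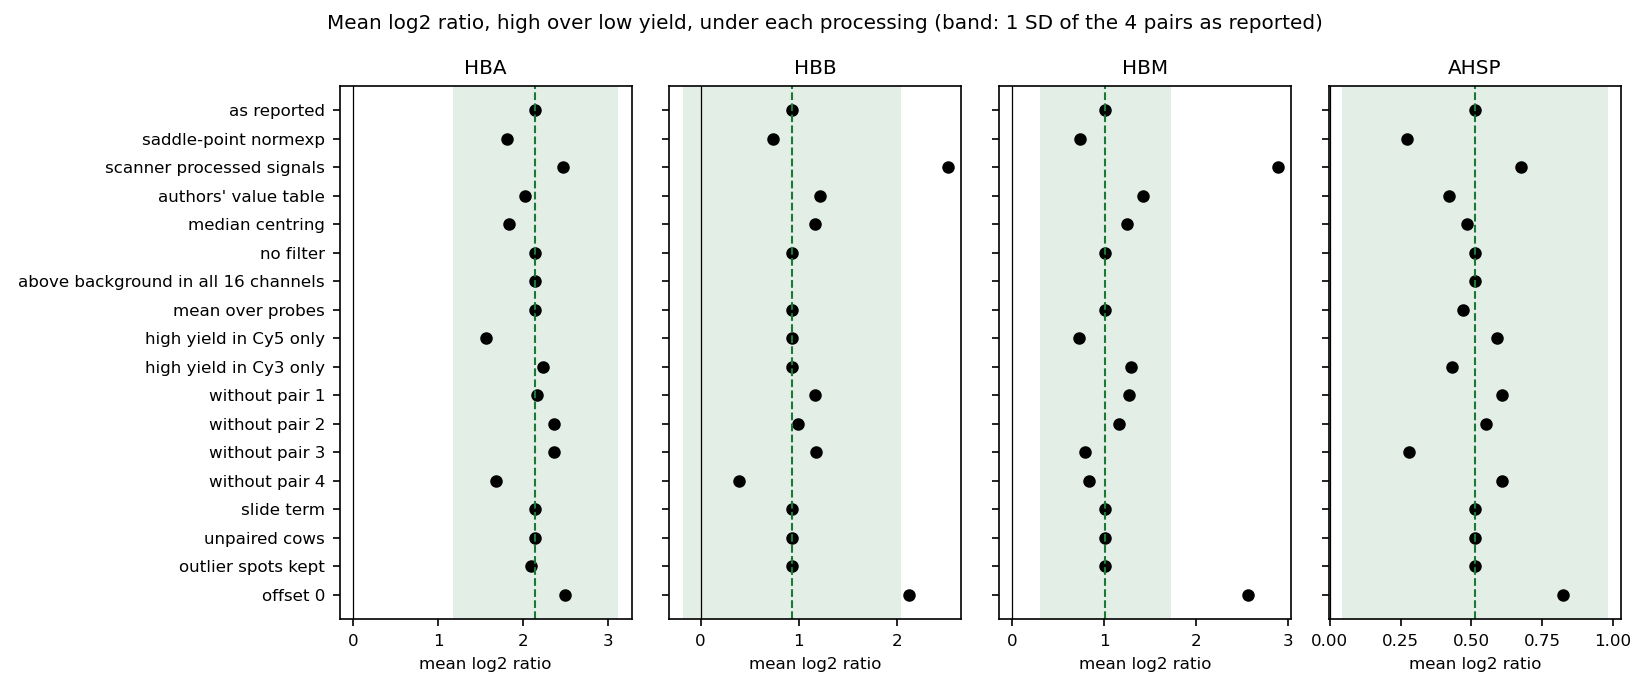
Mean log2 yield ratio (high over low) for HBA, HBB, HBM and AHSP under each way of processing (points), with the reported value (dashed line) and 1 SD of the 4 pairs (band). All points lie above 0, HBA between 1.56 and 2.49, while HBB and HBM reach 2.52 and 2.89 with the scanner's processed signals and have no value where a probe had to be above background in all 16 channels.

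In the authors' deposited table, pair 4 was the highest pair for HBA and HBB, with array values of 3.32 and 3.63 for HBA and 3.53 and 3.92 for HBB. For HBM the authors' deposited table, averaged over the arrays of a pair, put pair 4 (2.69) above pair 3 (1.70), the reverse of the order found here. That order held on array 1, at 2.19 in pair 4 and 0.04 in pair 3. On array 2 pair 3 led, at 3.37 against 3.20. That table gave 0.09 for HBA on array 1 of pair 2 and 0.11 on array 1 of pair 3, where the ratios computed here were 1.02 and 1.31. Its values for these arrays are compressed over the kept probes, with slopes of 0.150 and 0.124 on the scanner ratios against 0.700 to 0.913 for the other 6. How they were scaled is not given in the sources used here.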

How the data were processed

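RNA of 8 cows was hybridised to 8 arrays of 2 colours. The deposited scanner files held intensity values (mean spot and median local background brightness per dye), processed intensities and a log10 ratio of red over green, made with Feature Extraction 10.10.1.1 on design 023647, per the file headers. The log10 ratio served to set the direction of the authors' deposited log2 table, whose making is not given in the sources used here.

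Background was corrected with normexp (noise from 153 negative controls, offset 50) and dye bias with within-array loess (limma 3.58.1, R 4.3.3, data.table version 1.17.8), with control spots at weight 0. Outlier spots had no value and 0 were saturated. Arrays of a pair were averaged. The filter kept 29867 probes, and the brightest kept probe stood for a gene. Cow levels come from quantile-normalised mean intensities. The labels pair the cows. They name separate cows, so the pair (n = 4) was the replicate, tested by limma (lmFit, eBayes; two-sided) against 0, and p-values were adjusted by Benjamini and Hochberg's method over all 12688 genes, with a threshold of 0.05. Precision is limited by the number of cow pairs (n = 4). The script was tested on simulated data, whose outcome is not given here.

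Probes were named by accession (25144), gene number (1254), symbol (6721) or older symbol (265) through a table of assembly ARS-UCD2.0, 370 kept the file's name and 9899 had none. Python 3.11.15 was used for names, sequences and plots (pandas 2.3.3, matplotlib 3.10.9). The members and lists were chosen with earlier results of these data known. Named in each list were the largest and smallest means among genes of 1 sign in all pairs, up to 2 each, and a fixed set of marker genes. CYGB, in that set, had no probe under that name. Some genes of the fixed set are not reported here.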

Additional observations from a re-analysis of the deposited data

Results flagged for a closer look

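Among 51 groups of 4 values examined, 2 had a value far from the other 3, where chance gives about 1 in 20 for independent groups. These were AHSP probe A_73_119300, with pair 3 at 0.78 against 0.28 to 0.35 in the other pairs, and HSD11B2, with pair 4 at 0.56. HSD11B2 was picked for following HBA, which was also highest in pair 4. The groups hold genes chosen on these data and probes that overlap, so nothing is read from the count.

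In 5 of the named genes, from the haem, iron and membrane lists, both pairs of lactation II moved one way and both of lactation IV the other. The share of all genes tested with this pattern was not counted, so nothing is read from the number. The difference of lactation IV minus II was 2.02 for ALAS1, 1.71 for HMOX1, 3.24 for HP, 0.30 for SLC4A1 and -0.77 for CD163. None passed the limma test of the difference over all genes, with adjusted p = 0.614 for ALAS1 and HMOX1, 0.619 for HP, 0.620 for CD163 and 0.742 for SLC4A1. Lactation and slide cannot be told apart in any of them.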

How the results depend on the processing

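The mean ratios of HBA, HBB, HBM and AHSP stayed above 0 under every alternative that gave a value (17 for HBA and AHSP, 16 for HBB and HBM). HBA ranged from 1.56 to 2.49 and AHSP from 0.27 (saddle-point normexp) to 0.82 (offset 0). The scanner's processed signals moved HBB to 2.52 and HBM to 2.89, and offset 0, chosen after the data were seen as was keeping outlier spots, to 2.13 and 2.57. The cause was not tested beyond this: the offset is added to every spot and weighs most on dim ones. With each pair left out in turn HBA lay between 1.68 and 2.37, HBB between 0.39 and 1.18, HBM between 0.79 and 1.27 and AHSP between 0.28 and 0.61. For lactation IV minus II these ranges were -0.30 to 1.77 for HBA, -0.29 to 2.07 for HBB, 1.05 to 1.37 for HBM and -0.082 to 0.90 for AHSP. With the high-yield cow in Cy5 only, the HBA difference was -0.37, from 3 pairs, as pair 4 has no HBA spot there. Genes called for yield numbered 0 in all 17 alternatives (limma, 304 to 1915 at an unadjusted p under 0.05), also for unpaired cows, without the pair as a replicate block (0 called, 524 unadjusted). Genes called for the difference between lactations numbered 7 with median centring, 0 to 252 with a pair left out (252 without pair 2) and 0 otherwise; the cause was not tested. HBB and HBM are dim in low-yield cows, which limits their ratios.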
